A study of Homo sapiens with 15 samples.

Results

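The genes described here are 9 of the 59608 genes in the table of normalized read counts, taken by their symbol: the inhibitors of DNA binding ID1, ID2, ID3 and ID4, the inhibitory SMADs SMAD6 and SMAD7, the ligand BMP4 and the receptors BMPR1A and BMPR2. ID1 and ID4 were chosen by their falls in these libraries, so their values are given as a description with no test. The other 7 were chosen by name, with earlier results of these data known. All 9 passed the filter of a mean of at least 10 normalized counts, as did 13561 genes in all. At 500 nM of the compound ZJ-101 the 4 ID genes stood at between 25.9% and 43.3% of their level in the vehicle control, SMAD7 at 40.0% and SMAD6 at 54.2%. The transcripts of the 2 receptors did not pass the test at any dose in the fit of all libraries.

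Bone morphogenetic proteins (BMPs) are secreted ligands that bring type I receptors such as BMPR1A and type II receptors such as BMPR2 together. The receptors phosphorylate SMAD1, SMAD5 and SMAD9, which enter the nucleus with SMAD4 and switch on target genes, the ID genes and the inhibitory SMADs among them. ID proteins hold a helix-loop-helix domain but no DNA-binding region, and keep basic helix-loop-helix (bHLH) factors such as TCF3 off DNA.

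The cells were MDA-MB-231, a human triple-negative breast cancer line with mesenchymal features, grown as a monolayer in dishes. They received 0.1% DMSO as the vehicle, or ZJ-101 at 0.5, 5, 50 or 500 nM, for 6 h, with 3 libraries in each of the 5 groups. ZJ-101 is a synthetic, simpler analog of superstolide A, a macrolide from a marine sponge. The comparisons ask how transcript levels moved with dose, in 1 line at 1 time point, and the 4 doses share the same 3 DMSO libraries. Poly-A RNA was sequenced, and each library held between 12415519 and 15284762 reads on genes (median 13320354). The second library at 0.5 nM stood apart: its log2 values deviated from the mean of its group with an SD of 0.213, against 0.159 to 0.194 in the other libraries. Of 7 markers of the line, VIM, CD44, AXL, CAV1, ZEB1 and KRT18 passed the filter and SPARC, with a mean of 3.62, did not. The sum of the 7 lay between 50878 and 55238 in every library, though single markers moved in opposite directions. From DMSO to 500 nM the mean of CD44 went from 12154 to 9336 and that of AXL from 12212 to 14203. Of 6 markers of luminal or E-cadherin-positive breast cells, ESR1 had a mean of 0.744 normalized counts and did not pass the filter. The other 5 passed, with means of 290 for EPCAM, 147 for CDH1, 145 for GATA3, 22.1 for FOXA1 and 13.7 for PGR. The sum of the 6 lay between 549 and 708. Among 5 markers of blood and endothelium CD3E was at 0, PTPRC had a mean of 1.43 and CDH5 of 1.25, while PECAM1 and KDR had means of 251 and 137. The sum of the 5 lay between 294 and 493. From DMSO to 500 nM the mean of KDR went from 111 to 196 and that of PECAM1 from 256 to 216.

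ID1 lies on chromosome 20 (31605283 to 31606515, hg38, GENCODE 44, as for all genes below). It was the most abundant member in DMSO per length, with 5604 normalized counts per kilobase of exon, followed by ID3 with 871. Its normalized counts were 6824, 6909.5 and 6995 in the DMSO libraries and 2939, 2943 and 2794 at 50 nM. They were 2534, 2441 and 2417 at 500 nM. At both of these doses every library lay below every DMSO library. The lower doses looked different: ID1 was at 7063, 8977 and 7474 at 0.5 nM and at 6795, 7049 and 7018 at 5 nM. The 0.5 nM libraries lay above the DMSO libraries, the second by the most, and those at 5 nM overlapped with DMSO. The log2 fold changes against DMSO were 0.17, 0.01, -1.26 and -1.49 in the order of the doses, and that at 0.5 nM was 0.07 without the library that stood apart. Most of the fall, 84.5% on the log2 scale, was thus present at 50 nM. Here and below, the share of all tested genes whose libraries lay wholly apart from DMSO was not counted.

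ID4, on chromosome 6 (19837370 to 19842197), was the least abundant member, with 33.4 normalized counts per kilobase of exon in DMSO and 8.75 at 500 nM. Its normalized counts were 124, 137 and 128 in DMSO, 96.8, 122 and 115 at 0.5 nM, and 101, 118 and 108 at 5 nM. They were 48.4, 64.4 and 56.4 at 50 nM and 26.5, 28.3 and 46.8 at 500 nM. Every treated library lay below every DMSO library, and the third library at 500 nM was high for its group. These values rest on few reads: the 3 libraries at 500 nM held 26, 28 and 53 reads. The log2 fold changes were -0.22, -0.25, -1.19 and -1.95, and 61.3% of the change at 500 nM was present at 50 nM.

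ID3, on chromosome 1 (23557926 to 23559501), encodes another inhibitor of bHLH factors and was chosen by name. It had 1338, 1362 and 1207 normalized counts in DMSO, 1285, 1478 and 1206 at 0.5 nM, and 1281, 1223 and 1073 at 5 nM. It had 597, 595 and 529.7 at 50 nM and 368, 391 and 374 at 500 nM. The groups at 0.5 and 5 nM overlapped with DMSO, whereas those at 50 and 500 nM lay wholly below it. By limma with Benjamini-Hochberg adjustment over the 13561 genes, ID3 fell by 1.18 on the log2 scale at 50 nM (SE 0.08, adjusted p = 8.1e-09). It fell by 1.78 at 500 nM (SE 0.08, 95% interval -1.95 to -1.62, adjusted p = 1.7e-11 by limma). The changes at the lower doses, 0.02 at 0.5 nM and -0.13 at 5 nM, were not called (limma, adjusted p = 0.95 and 0.54). In bulk RNA, fewer cells with a transcript and less of it per cell cannot be told apart.

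ID2, on chromosome 2 (8678845 to 8684461), had 284, 233 and 213 normalized counts in DMSO, 220.4, 242 and 204 at 0.5 nM, and 212, 219 and 172 at 5 nM. It had 117, 134 and 131 at 50 nM and 107, 107 and 98.0 at 500 nM. The DMSO libraries were the most spread of the 5 groups, with the first the highest, yet all of them lay above every library at 50 and 500 nM. ID2 fell by 0.92 on the log2 scale at 50 nM (SE 0.12, limma, adjusted p = 3.1e-05) and by 1.21 at 500 nM (SE 0.12, 95% interval -1.45 to -0.96, adjusted p = 4.7e-07). The values at 0.5 and 5 nM were -0.12 and -0.27 (limma, adjusted p = 0.69 and 0.31). Of its exon bases, 6.55% lie under the antisense gene ID2-AS1, and the sources used here do not say whether the counting used strand.

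**Figure D1:**
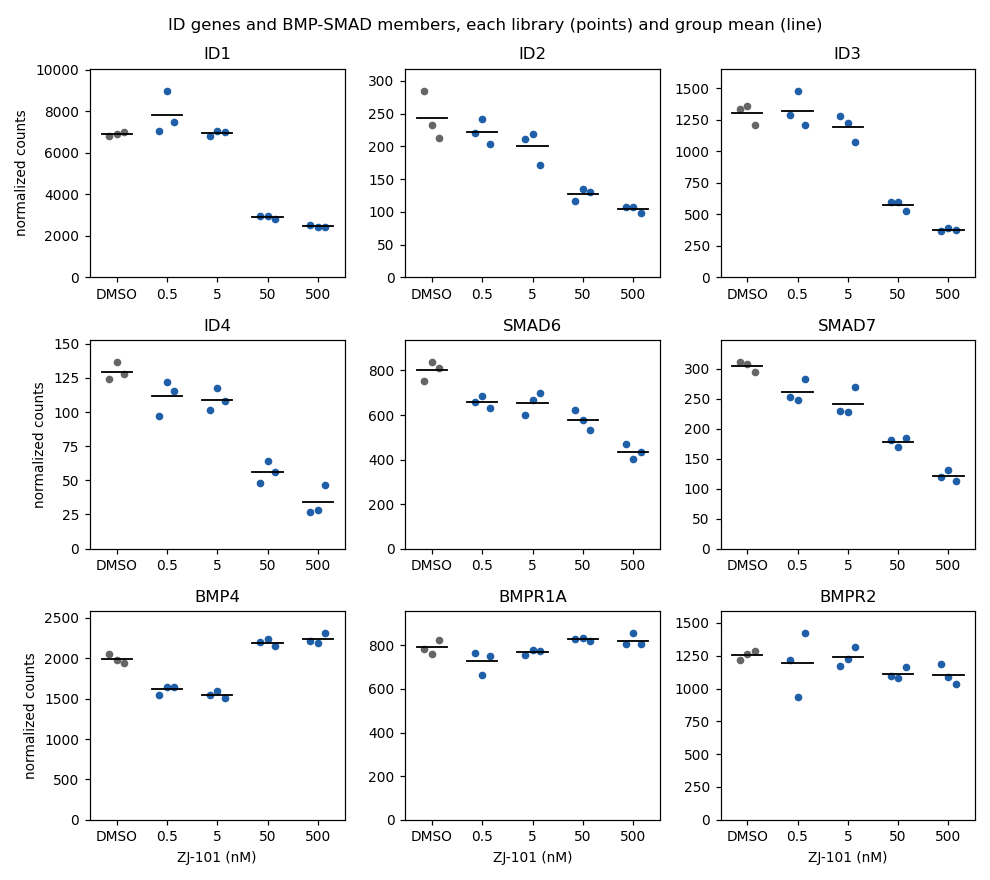
Normalized counts (vertical axes, linear, from 0) of the 9 genes in DMSO and at 4 doses of ZJ-101 in nM (horizontal axes); points are single libraries, 3 per group, and lines are group means. The ID genes step down between 5 and 50 nM. The libraries of ID4, SMAD6 and SMAD7 at 0.5 nM lie below those of DMSO, but ID4 was untested and SMAD6 and SMAD7 were not called (limma, adjusted p = 0.081 and 0.24). BMP4 is below DMSO at 0.5 and 5 nM and above it at 50 and 500 nM.

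ID2 and ID3 were lower at 50 and 500 nM, as were ID1 and ID4, which were chosen by their falls. The 250 bases before the first listed RefSeq start of each of the 4 ID genes are shown (GRCh38.p14, each written 5′ to 3′ on the strand of the gene). Short motifs found by a search of both strands are in capitals. They were the sequence GTCTG with its reverse CAGAC, the box that SMADs bind, the sequence TGACG with its reverse CGTCA, the core of CREB and ATF sites, and the sequence CCAAT with its reverse ATTGG, the box of NF-Y. The sequence GGCGCC, a GC-rich element bound by SMADs of the BMP branch, was searched as well.

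ID1, chr20:31605039-31605288, plus strand: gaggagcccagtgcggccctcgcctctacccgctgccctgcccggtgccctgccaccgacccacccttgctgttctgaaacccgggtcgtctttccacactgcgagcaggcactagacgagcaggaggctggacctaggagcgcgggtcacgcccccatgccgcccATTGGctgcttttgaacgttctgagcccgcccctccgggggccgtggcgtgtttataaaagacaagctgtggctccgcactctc
ID2, chr2:8681806-8682055, plus strand: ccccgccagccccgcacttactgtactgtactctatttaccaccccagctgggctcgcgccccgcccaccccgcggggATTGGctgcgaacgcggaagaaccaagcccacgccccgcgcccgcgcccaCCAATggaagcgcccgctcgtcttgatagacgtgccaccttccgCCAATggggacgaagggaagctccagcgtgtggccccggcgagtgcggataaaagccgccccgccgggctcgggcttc
ID3, chr1:23559502-23559751, minus strand: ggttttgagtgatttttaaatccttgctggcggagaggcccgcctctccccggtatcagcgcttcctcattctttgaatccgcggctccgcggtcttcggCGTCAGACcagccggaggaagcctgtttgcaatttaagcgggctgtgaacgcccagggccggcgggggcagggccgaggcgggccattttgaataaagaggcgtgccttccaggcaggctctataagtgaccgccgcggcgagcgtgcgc
ID4, chr6:19837120-19837369, plus strand: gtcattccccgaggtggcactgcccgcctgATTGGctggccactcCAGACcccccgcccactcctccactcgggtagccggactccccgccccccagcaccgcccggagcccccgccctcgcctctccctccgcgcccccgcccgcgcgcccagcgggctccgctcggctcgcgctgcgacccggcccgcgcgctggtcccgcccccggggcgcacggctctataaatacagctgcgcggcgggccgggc

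The windows of ID1, ID2 and ID4 held the CCAAT box, at 84 bases before the start in ID1, at 172, 122 and 78 in ID2 and at 220 in ID4. This box was in 33.0% of the 27305 windows of the RefSeq table and in 35.1% of the 10029 windows of tested genes. ID3 and ID4 held the GTCTG box, at 147 and 205 bases, which 35.7% of the windows of tested genes held. In ID3 it overlaps with a TGACG core at 150 bases, a sequence in 29.8% of those windows. The GC-rich element was in none of the 4 ID windows and in 26.4% of the windows of tested genes. The RefSeq table held 13 windows for the 9 members, and only the first listed of each gene was searched. Over the 9 members, the CCAAT box was in 3 of these windows, the GTCTG box in 5 and the TGACG core in 1. The GC-rich element was in 2, those of BMP4 and BMPR2. A match describes letters in these windows and marks no binding site. Bases outside the windows were not searched, so an absence holds for these windows only.

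SMAD7, on chromosome 18 (48919853 to 48950965), encodes an inhibitory SMAD that blocks type I receptors of the BMP and TGF-beta branches. It had 311, 309 and 295 normalized counts in DMSO, 253, 247 and 282 at 0.5 nM, and 229, 227 and 269.9 at 5 nM. It had 182, 170.3 and 184 at 50 nM and 120.3, 131 and 113 at 500 nM. The treated libraries lay below the DMSO libraries at all 4 doses. By limma, SMAD7 fell by 0.77 on the log2 scale at 50 nM (SE 0.09, adjusted p = 1.1e-05) and by 1.32 at 500 nM (SE 0.09, 95% interval -1.51 to -1.14, adjusted p = 3.2e-09). The values at 0.5 nM (-0.23, adjusted p = 0.24) and at 5 nM (-0.34, adjusted p = 0.058) did not pass in limma, while edgeR called that at 5 nM (adjusted p = 0.043). The value at 5 nM also passed in limma without the second (adjusted p = 0.034) or the third library (adjusted p = 0.048) at 0.5 nM, or the third at 5 nM (adjusted p = 0.031).

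SMAD6, on chromosome 15 (66702236 to 66782849), encodes the inhibitory SMAD that acts mainly on the BMP branch. It had 752, 838 and 812 normalized counts in DMSO, 657, 684 and 632 at 0.5 nM, and 602, 668 and 697 at 5 nM. It had 624, 579 and 534 at 50 nM and 469, 402 and 432 at 500 nM. Every treated library lay below every DMSO library, while the groups from 0.5 to 5 nM overlapped with each other. SMAD6 fell by 0.47 on the log2 scale at 50 nM (SE 0.07, limma, adjusted p = 0.00035) and by 0.88 at 500 nM (SE 0.07, 95% interval -1.04 to -0.73, adjusted p = 6.9e-08). The change of -0.29 at 5 nM was at the threshold (limma, adjusted p = 0.048), and leaving out any 1 of the 3 DMSO or the 3 libraries at 5 nM ended the call, as did leaving out 1 of 3 further libraries. These are the first library at 0.5 nM, the second at 50 nM and the third at 500 nM, and over all 9 the adjusted p lay between 0.050 and 0.23. The value at 0.5 nM was -0.28 (limma, adjusted p = 0.081).

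BMP4, on chromosome 14 (53949736 to 53958761), encodes a secreted BMP ligand and was at 643 normalized counts per kilobase of exon in DMSO. It had 2056, 1977 and 1941 normalized counts in DMSO, 1547, 1644 and 1649.8 at 0.5 nM, and 1551, 1595 and 1506 at 5 nM. It had 2198, 2235 and 2152 at 50 nM and 2218, 2184 and 2310.4 at 500 nM. No dose group overlapped with DMSO: the libraries at 0.5 and 5 nM were all lower and those at 50 and 500 nM all higher. BMP4 fell by 0.30 on the log2 scale at 0.5 nM (SE 0.04, limma, adjusted p = 0.0023) and by 0.36 at 5 nM (adjusted p = 0.00013). It rose at 500 nM by a log2 change of 0.17 (SE 0.04, 95% interval 0.08 to 0.26, limma, adjusted p = 0.010), a call lost without the third DMSO library (adjusted p = 0.053) or the third at 500 nM (adjusted p = 0.059). The value at 50 nM was 0.14 (limma, adjusted p = 0.064), and it passed without the second library at 0.5 nM (adjusted p = 0.031), in DESeq2 (adjusted p = 0.047), with only that dose and DMSO in the fit (adjusted p = 0.046) and with the length and GC trend removed (adjusted p = 0.031). Of the exon bases of BMP4, 16.3% lie under an antisense gene, ENSG00000287156.

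BMPR1A, on chromosome 10 (86756596 to 86932825), encodes a type I receptor. It had 784, 762 and 826 normalized counts in DMSO, 763, 665 and 749.7 at 0.5 nM, and 756, 778 and 773 at 5 nM. It had 831, 835 and 819 at 50 nM and 805, 856 and 805 at 500 nM. The libraries overlapped with DMSO at all 4 doses, and at 500 nM the log2 fold change was 0.06 (95% interval -0.06 to 0.17, limma, adjusted p = 0.57). BMPR2, on chromosome 2 (202376327 to 202567751), encodes the type II receptor. It had 1217, 1260.5 and 1284 normalized counts in DMSO, 1219.7, 935 and 1422 at 0.5 nM, and 1173, 1223 and 1320.6 at 5 nM. It had 1095, 1082 and 1166 at 50 nM and 1189, 1088 and 1037 at 500 nM. Its libraries at 50 and 500 nM lay below the DMSO libraries, with a log2 fold change of -0.18 at 500 nM (95% interval -0.40 to 0.03, limma, adjusted p = 0.24). At 0.5 nM the 3 libraries spread widely around DMSO, with the second, which stood apart over all genes, the lowest. Without that second library BMPR2 passed the test at 500 nM (limma, adjusted p = 0.033) and by the slope (adjusted p = 0.011).

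Of the 7 members chosen by name, 4 fell at 50 nM, where 3.71% of the 13561 tested genes fell and 2.29% rose. The same 4, ID2, ID3, SMAD6 and SMAD7, fell at 500 nM, where 10.1% of tested genes fell, and BMP4 rose, where 7.69% rose. At 0.5 nM only BMP4 fell of the 7, with 0.922% of tested genes falling and 0.251% rising. At 5 nM BMP4 and SMAD6 fell, with 1.71% of tested genes falling and 0.465% rising. Ranked by log2 fold change at 500 nM from the lowest of the 13561 genes, ID3 was at place 11, SMAD7 at 43, ID2 at 55 and SMAD6 at 163. BMPR2 was at 2406, BMPR1A at 8388 and BMP4 at 11013. ID4 was at place 7 and ID1 at 22, but both were chosen by their falls, so their low places follow from that choice. The other 7 were chosen with earlier results of these data known, so their counts and places are a description as well.

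**Figure D2:**
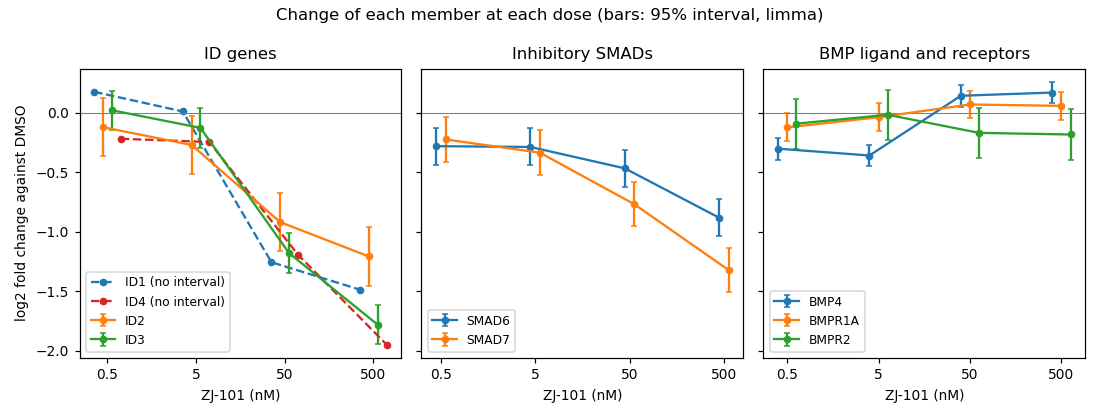
Log2 fold change against DMSO (vertical axis) at each dose of ZJ-101 in nM (horizontal axis) for the ID genes, the inhibitory SMADs, and the ligand and receptors; bars are 95% intervals from limma, and ID1 and ID4, chosen by their falls, are drawn dashed with no interval. At 500 nM the ID genes lie between -1.95 and -1.21 and the receptors at 0.06 and -0.18.

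Each dose was also compared with the next lower one. From 0.5 to 5 nM no member of the 7 was called by limma, edgeR or DESeq2, 0 had an unadjusted p under 0.05 in any of the 3, and 0.118% of all tested genes were called. From 5 to 50 nM ID3 fell by 1.05 on the log2 scale (adjusted p = 8.9e-08), ID2 by 0.65 (adjusted p = 0.0021) and SMAD7 by 0.43 (limma, adjusted p = 0.0061), while BMP4 rose with a log2 change of 0.50 (adjusted p = 4.4e-07). In that step 2.39% of tested genes fell and 2.62% rose. SMAD6 had a value of -0.18 (limma, adjusted p = 0.20), and ID1 and ID4, untested, had values of -1.27 and -0.95. From 50 to 500 nM ID3 fell by 0.60 (adjusted p = 0.00022), SMAD7 by 0.55 (adjusted p = 0.0017) and SMAD6 by 0.41 (limma, adjusted p = 0.0038), beside 1.80% of tested genes that fell and 0.479% that rose. ID2 had a value of -0.29 in that step (limma, adjusted p = 0.29), ID1 one of -0.23 and ID4 one of -0.75.

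The members thus split their changes differently between the doses, as a description: of the log2 change at 500 nM, ID1 had 84.5% by 50 nM, ID2 76.2%, ID3 66.3%, ID4 61.3%, SMAD7 58.2% and SMAD6 53.1%. Over the rank of the dose, with DMSO lowest, the slope per step on the log2 scale was -0.48 for ID3, -0.32 for ID2 and SMAD7, and -0.20 for SMAD6. All 4 were called by limma, with adjusted p from 7.9e-08 to 1.6e-06, where 9.33% of tested genes had a called fall and 8.23% a called rise. The slopes of BMP4 (0.08, limma, adjusted p = 0.10), BMPR1A (0.03, adjusted p = 0.17) and BMPR2 (-0.04, adjusted p = 0.19) were not called, and that of BMP4 passed without the first DMSO library (adjusted p = 0.040).

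The rest of the pathway was taken from lists of 111 genes, of which 82 were tested. These lists were chosen with earlier results of these data known, so their counts beside all tested genes are a description. At 500 nM, 35 of the 82 fell and 4 rose, beside 10.1% and 7.69% of all tested genes, with a median log2 change of -0.19 against 0.003 over all tested genes. At 50 nM 15 fell and 2 rose, beside 3.71% and 2.29%, and at 5 nM 9 fell and 1 rose, beside 1.71% and 0.465%. At 0.5 nM 4 fell and none rose, beside 0.922% and 0.251%, with 3 positive changes at an unadjusted p under 0.05 and no rise called by edgeR or DESeq2.

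Among 7 tested targets and feedback genes of BMP signaling, 4 fell at 500 nM, where 10.1% of all tested genes fell, with a median of -0.55. HES1, a bHLH repressor that Notch signals also induce, went from 320.4 ± 17.6 to 106 ± 12.6 normalized counts (SD, n = 3), a log2 change of -1.60 (limma, adjusted p = 3.9e-09). HES1 had already fallen by 0.50 at 5 nM (limma, adjusted p = 0.020) and by 1.30 at 50 nM (adjusted p = 1.9e-07). NOG, which encodes the secreted BMP antagonist noggin, went from 218 ± 4.30 to 110.4 ± 4.15 (log2 change -0.98, limma, adjusted p = 1.8e-07). ATOH8, a bHLH factor, went from 477 ± 24.7 to 248 ± 24.1 (-0.94, limma, adjusted p = 1.6e-07). BAMBI, a decoy receptor, had a value of -0.28 (limma, adjusted p = 0.066).

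Of 6 other SMADs limma called only SMAD4 at 500 nM, a fall, beside 10.1% of all tested genes that fell and 7.69% that rose. SMAD4 had 696 ± 10.7 normalized counts in DMSO and 608 ± 13.9 at 500 nM (log2 change -0.19, limma, adjusted p = 0.020). Its call was lost without the second or the third library of either group (limma, adjusted p 0.055 to 0.074). Among the SMADs that BMP receptors phosphorylate, SMAD1 (-0.07, limma, adjusted p = 0.74) and SMAD5 (0.06, adjusted p = 0.57) were not called. SMAD9, with 48.2 ± 7.49 normalized counts in DMSO and 31.3 ± 1.94 at 500 nM, had a value of -0.60 (limma, adjusted p = 0.056), which edgeR called (adjusted p = 0.047). From 5 to 50 nM SMAD9 fell by 1.01 on the log2 scale (limma, adjusted p = 0.0063), and its slope of -0.22 per step was called (adjusted p = 0.027). Of 7 other receptors and co-receptors limma called only ACVR1, a type I receptor, which rose from 548 ± 29.5 to 643 ± 10.3 (0.23, limma, adjusted p = 0.0068). This stands beside 7.69% of all tested genes that rose and 10.1% that fell. The lowest log2 change among the 7, -0.72, was not called. BMP2, 1 of 2 tested ligands besides BMP4, went from 114 ± 11.8 to 77.0 ± 13.0 (-0.57, limma, adjusted p = 0.0040). Among the 8 tested extracellular antagonists and modulators, 5 fell and 1 rose, beside 10.1% and 7.69% of all tested genes: BMPER fell by 0.75 (limma, adjusted p = 0.00033) and BMP1, a protease that frees BMPs from chordin, by 0.59 (adjusted p = 4.6e-05). FSTL3, which binds activins, fell by 0.39 (limma, adjusted p = 0.00028), and NBL1 had a log2 change of 0.27 (adjusted p = 0.0072). Of the exon bases of NBL1, 18.6% overlap with MICOS10 or the readthrough gene MICOS10-NBL1, so reads may be shared.

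Of 27 tested intracellular regulators, 7 fell and 1 rose at 500 nM, beside 10.1% and 7.69% of all tested genes. The rise was NEDD4L, a ubiquitin ligase that acts on SMADs, from 1611 to 2394.5 normalized counts (log2 change 0.57, limma, adjusted p = 6.0e-07). SKIL, a SMAD co-repressor, fell by 0.71 (limma, adjusted p = 1.1e-05), CTDSP1, a SMAD phosphatase, by 0.28 (adjusted p = 0.00046) and TGIF1, another co-repressor, by 0.23 (adjusted p = 0.025). The TGIF1 call was lost without any 1 of the DMSO libraries or the second at 500 nM (limma, adjusted p 0.055 to 0.13).

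In the neighbouring TGF-beta and activin branch, 12 of 13 tested ligands, receptors and LTBP genes fell at 500 nM by limma (median -0.45), beside 10.1% of all tested genes. With DESeq2 11 of them fell. LTBP1, which holds latent TGF-beta in the matrix, went from 853 ± 4.95 to 273 ± 27.0 (SD, n = 3; log2 change -1.65, limma, adjusted p = 6.4e-10). LTBP2 fell by 0.66 (limma, adjusted p = 0.00020) and LTBP3 by 0.55 (adjusted p = 4.0e-06). Of 9 tested TGF-beta target genes 5 fell and 1 rose, beside 10.1% and 7.69% of all tested genes. JUNB, an AP-1 subunit, fell by 0.99 (limma, adjusted p = 3.1e-07), with 14.2% of its exon bases under the antisense gene HOOK2. CDKN1A, a cell cycle inhibitor, fell by 0.61 (limma, adjusted p = 5.8e-08). THBS1, a matrix protein that activates TGF-beta, was at 9585 ± 275 in DMSO and 5015 ± 169 at 500 nM (-0.93, limma, adjusted p = 7.9e-10), yet its value at 50 nM was 0.01.

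Of 8 listed bHLH factors that ID proteins bind, the 3 that were tested were not called. TCF3 (-0.03, limma, adjusted p = 0.64), TCF4 (-0.07, adjusted p = 0.93) and TCF12 (-0.02, adjusted p = 0.88) were the 3 of 8 that passed the filter, none had an unadjusted p under 0.05 at 500 nM, and edgeR and DESeq2 called none.

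**Figure D3:**
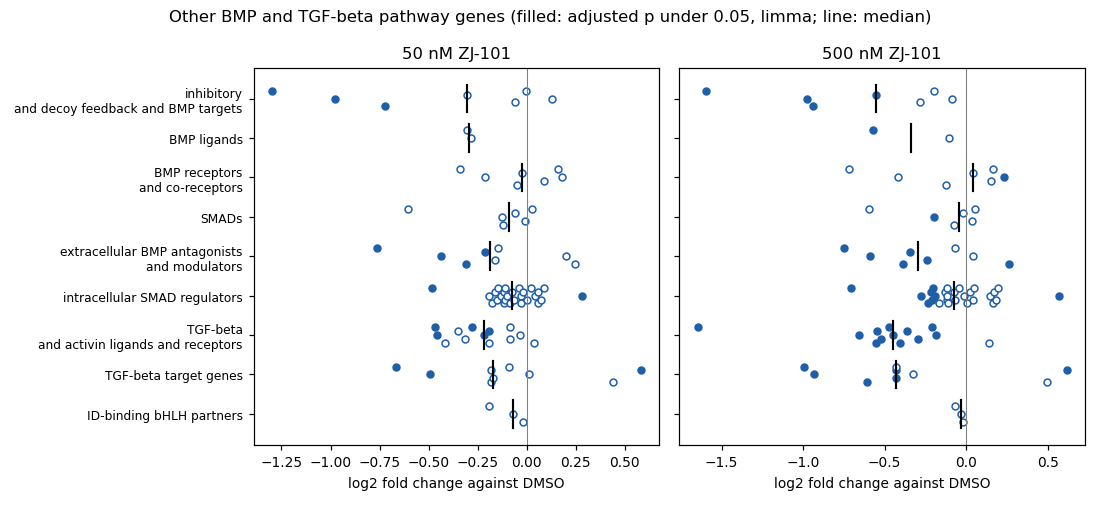
Log2 fold change against DMSO (horizontal axes) at 50 and 500 nM for the 82 tested genes of 9 lists (vertical axis), each point a gene, filled where limma's adjusted p was under 0.05, with a line at the median of each list. At 500 nM 12 of the 13 TGF-beta and activin ligands, receptors and LTBP genes are filled and negative. The 3 bHLH partners lie between -0.07 and -0.02.

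The genes with the dose profile most like each ID gene were found among 11054 tested genes with a mean of at least 50, by the root mean square distance of the 4 log2 fold changes. For ID1 these were SEMA3A, a secreted guidance protein (distance 0.106), FBN1, the matrix protein fibrillin-1 (0.143), and NFE2L1, a transcription factor of the ER membrane (0.168). For ID2 they were PCDHGC3 (0.0386), a protocadherin that shares exons with its gene cluster, ST8SIA4, a polysialyltransferase (0.0677), and TPBG, a surface glycoprotein (0.0795). For ID3 they were CKAP4, an ER membrane protein (0.122), ID4 (0.158) and ID1 (0.184). For ID4 they were ID3 (0.158), VAMP7 (0.162), a vesicle SNARE in the region that X and Y share, and CKAP4 (0.169). All points of a profile share the same DMSO libraries. ID1 and ID4 were chosen by their falls in these libraries, so their nearness to ID3 may follow in part from that choice.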

How the data were processed

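RNA of MDA-MB-231 cells was measured in 15 libraries. The authors mapped paired 150 bp reads on hg38 by HISAT2, used htseq-count for counts per GENCODE gene, and deposited these counts divided by DESeq2 size factors, a normalized signal. Strand setting, tool versions and the GENCODE release are not given in the sources used here. 1 line that holds doses was left out, and 0 columns of values went unused. Each deposited signal value was a whole number of reads within a tolerance of 0.001 (100.0% of values above 0), with size factors of 0.916 to 1.13. For pairs of replicates chi-square divided by its degrees of freedom was 2.04 to 16.5, so no pair was counted as 1 library. The methods call the replicates biological.

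The test was limma 3.58.1 (R 4.3.3) on log2(normalized count + 1) with a variance trend, for genes with a mean of at least 10, with 5 groups in 1 fit, 10 residual degrees of freedom and Benjamini-Hochberg adjustment (threshold 0.05). Fold changes understate those of low genes. Slopes used dose rank. The script was tested on simulated data. edgeR 4.0.16, DESeq2 1.42.0, filters, pseudocounts, scalings, the replicate block and leaving out each library were alternatives. The removal of a length and GC trend was added after seeing the data. Members and lists were chosen with earlier results of these data known. Every member is named, and up to 3 rises and 3 falls per list at 500 nM, the largest called, and 3 nearest genes per ID gene. 1 gene that this rule takes is not reported here. SMAD1, SMAD5, SMAD9, BAMBI and the bHLH partners were added after their values were seen. Spheroids and imaging were not analysed here.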

Additional observations from a re-analysis of the deposited data

How the results depend on the processing

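Of 1428 repeats of 56 single values of the 7 members chosen by name, 1383 kept direction and side of the threshold, 15 lost the call, 17 gained it and 13 changed sign, all of values called in neither fit. The log2 change of ID3 at 0.5 nM was -0.063 to 0.083 without 1 library and -0.035 with the length and GC trend removed. That of SMAD6 from 0.5 to 5 nM was -0.053 to 0.053 without 1 library and 0.00015 with TMM scaling, and that of BMPR1A from 50 to 500 nM was -0.041 to 0.0032. Without 1 library BMPR2 lay between -0.23 and 0.071 at 0.5 nM and between -0.066 and 0.020 at 5 nM. Its step between these doses was -0.090 to 0.21, and that between the highest doses -0.068 to 0.031. ID1 at 5 nM, untested, was 0.01 and reached -0.0066. The count of members called at 0.5 nM, 1, was 2 with DESeq2, which added SMAD6 (adjusted p = 0.031), and 0 with only that dose and DMSO in the fit. At 5 nM the count of 2 was 1 with no filter, with TMM scaling and with the replicate block, and 1 to 3 when 1 library was left out. It was 3 where SMAD7 gained its call, with a mean of at least 50 (adjusted p = 0.046), the same total per library (adjusted p = 0.047), edgeR (adjusted p = 0.043) and only the dose and DMSO (adjusted p = 0.020). At 50 nM the 17 pathway genes called ranged from 14 to 29, the highest without the second library at 0.5 nM. Without 1 library the fall of ID1 at 500 nM lay between -1.51 and -1.47 and that of ID4 between -2.20 and -1.80. With only the dose and DMSO in the fit, the call of BMP4 at 0.5 nM was lost (adjusted p = 0.079) and BMPR2 gained calls at 50 nM (adjusted p = 0.036) and 500 nM (adjusted p = 0.016). The removal of the length and GC trend ended the call of SMAD4 (adjusted p = 0.063). The cause of these changes was not tested.

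Over all tested genes, 159 were called at 0.5 nM, against 241 with DESeq2, 21 with only that dose and DMSO, and 19 to 391 without 1 library. At 5 nM the 295 calls became 846 with only that dose and DMSO and 113 to 623 without 1 library, and at 50 nM 814 calls became 560 to 1276. The 16 calls between 0.5 and 5 nM became 32 with DESeq2. Without the second library at 0.5 nM the 679 calls between 5 and 50 nM became 1129 and the 309 between 50 and 500 nM became 630.

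Libraries of the same number showed no clear shared deviation. The correlations of 30 pairs lay between -0.085 and 0.096, and 7 of 15 libraries correlated best with their own number. The numbers were used here as names of the samples, and this check cannot settle whether they mark a weak pairing. The block changed no other call of a member.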
